A study of Homo sapiens with 11 samples.

Results

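The genes examined here are 45 genes that license, fire and copy DNA replication origins. They were named by symbol, and each was found in the RefSeq gene table of the hg38 assembly, which holds 19974 protein-coding genes on chromosomes 1 to 22 and X. For each gene, CTCF summits were collected inside the gene body or within 10 kb of either end. CTCF is a zinc finger protein that binds DNA and bounds chromatin loops. CUT&RUN uses an antibody to bring a nuclease to a protein on chromatin, so that the DNA at its binding site is cut free and sequenced. It was done in HCT116 p53-/-, a human colorectal cancer line without p53. The groups were WT cells, ORC2 deletion cells and ORC2 rescue cells, all of them p53-/-. Each genotype was profiled for CTCF and, as background, with IgG, with 2 libraries per group and 1 for rescue IgG. The ORC2 deletion cells are a single CRISPR/Cas9 clone, and the rescue cells were selected as clones after ORC2 with its untranslated regions was put back on the plasmid pLHCX. A summit list shows no RNA, so the identity of the cells could not be checked by marker genes.

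Replication begins at origins, where the origin recognition complex, ORC, and CDC6 and CDT1 place the MCM2-7 helicase on DNA in G1 phase. Geminin blocks a second loading in the same cycle. In S phase the kinase CDC7 with DBF4, and cyclin-dependent kinases acting through TICRR (Treslin), MTBP and TOPBP1, bring CDC45 and GINS to the helicase. The polymerases, the PCNA clamp and the ligase then copy the strands. Many of these genes are targets of E2F factors and are induced on entry into S phase in dividing cells.

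Each genotype has 1 CTCF list, which names no replicate and was taken as the pool of its libraries. No spread between replicates can therefore be given, no difference between genotypes was tested, and intervals below are 95% Wilson intervals that cover counting error only. Library depth is not known from these files. The value of a summit is the −log10 of the authors' peak caller q, with no scaling between lists, so that it ranks summits within 1 list. Its median was 6.18 in the WT list, 8.06 in the deletion list and 6.58 in the rescue list. At the 45 genes the medians were 5.62, 7.55 and 6.20. Values of the lists given side by side below are therefore no measure of a difference in binding. The WT list was 19044 summits long, the deletion list 31112 and the rescue list 20810. The IgG lists were short (17 WT, 34 deletion and 33 rescue summits), and near the 45 genes they had summits at ORC2 alone. The share of all protein-coding genes with an IgG summit was not counted.

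More CTCF summits were listed around these genes in ORC2 deletion than in WT or rescue cells. The 45 windows, 3.41 Mb in all, held 46 WT, 79 deletion and 44 rescue summits, and no summit lay in the windows of more than 1 of the genes. Deletion over WT was 1.72 and rescue over WT 0.957. Over the windows of all protein-coding genes these ratios were 1.64 and 1.10, so the deletion ratio at the replication genes was close to that of genes in general. Per Mb the replication genes had 13.5 WT, 23.2 deletion and 12.9 rescue summits, against 8.79, 14.4 and 9.63 over all protein-coding genes. A list of 50 other replication genes, described below, had 14.6 WT and 16.9 rescue summits per Mb, both above the 45 genes. Its deletion density was just below that of the 45. The higher density than over all protein-coding genes was thus not particular to the 45 genes. The 45 genes were longer, with a median of 41.1 kb against 24.2 kb over all protein-coding genes and 24.0 kb for the 50 others. The part of gene length in these densities was not tested.

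The WT list had a summit for 29 of the 45 genes, 64.4% (49.8 to 76.8). The deletion list had one for 37, 82.2% (68.7 to 90.7), and the rescue list for 28, 62.2% (47.6 to 74.9). Of all protein-coding genes, 50.4% had a WT, 63.7% a deletion and 52.0% a rescue summit. Summits stood in all 3 lists at 24 genes, 53.3% (39.1 to 67.1), against 43.6% of all protein-coding genes. CDC45, CDC7, GINS4, TIPIN and PRIM1 had summits in the deletion list alone, and TICRR had one in the WT list alone, 11.1% and 2.22% of the genes against 8.75% and 1.45%. ORC1, MCM5, MCM8 and WDHD1 had summits in deletion and rescue but none in WT. ORC5, GINS2, POLA1 and FEN1 had them in WT and deletion but none in rescue. Each of these 2 classes was 8.89% of the genes (3.51 to 20.7), against 6.49% and 4.92%. In each of these combinations of lists the value of all protein-coding genes lies inside the interval of the replication genes. ORC3, MCM2, MCM4, MCM6, MCM7, GINS3 and RFC1 had no summit in any list, 15.6% of the genes (7.75 to 28.8) against 32.9% of all protein-coding genes. This 32.9%, like the 63.7% with a deletion summit, lies outside the interval of the replication genes. The part of gene length in these shares was not tested.

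**Figure D1:**
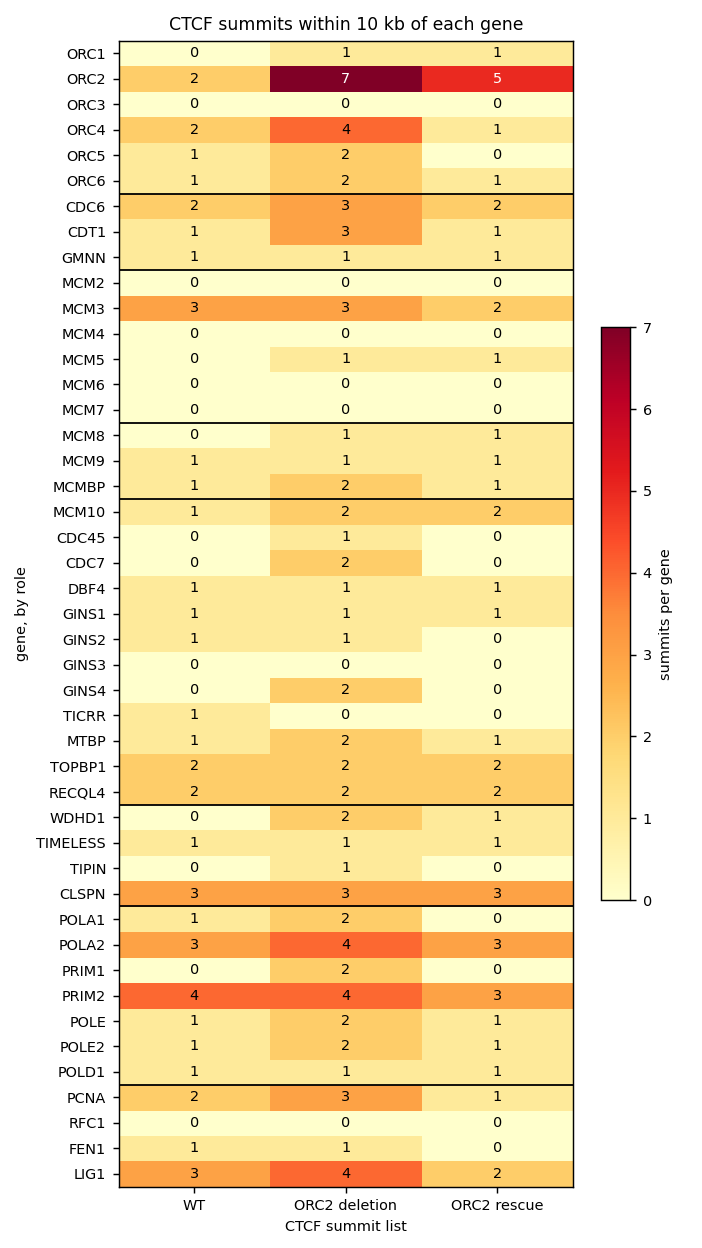
Number of CTCF summits inside each gene or within 10 kb of it, with 1 row per gene, 1 column per list and lines between roles. ORC2 has the highest count, 7 in the deletion list, and 7 genes are at 0 in every list.

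More summits in deletion than in WT were listed for 24 of the 45 genes, 53.3% (39.1 to 67.1), and fewer for 1, TICRR. Over all protein-coding genes 37.6% had more and 4.27% had fewer. A longer gene has a longer window, and the replication genes had a median of 41.1 kb against 24.2 kb. The part of gene length in the shares of this paragraph was not tested. A gain of at least 2 summits was seen at 7 genes, ORC2, ORC4, CDT1, CDC7, GINS4, WDHD1 and PRIM1, 15.6% against a background of 12.6%. In rescue cells 6 genes had more summits than in WT and 10 had fewer, 13.3% and 22.2%, against 18.1% and 13.0% of all protein-coding genes.

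The ratio of deletion to WT moved with the value minimum, at these genes as over the whole lists. With −log10 q of at least 5, the 45 windows held 28 WT and 59 deletion summits, a ratio of 2.11 against 1.90 over the whole lists. With at least 10 they held 8 and 24, against a whole-list ratio of 2.76. Cutting the lists to equal length sets the whole-list ratio to 1 by construction, so what it leaves to compare is which genes keep summits. With the 19044 highest-valued summits of each list, which removes deletion summits below 6.42 and rescue summits below 2.71, the 45 windows held 46 summits in WT and 50 in deletion, a ratio of 1.09. More summits in deletion were then listed for 11 genes and fewer for 11 (24.4% each, 14.2 to 38.7), where 13.7% of all protein-coding genes had more and 14.9% fewer. ORC2, with 2 in WT and 6 in deletion, of which 2 were near IgG summits, and PRIM1, with 0 and 2, still had a gain of at least 2. ORC4, MCM5, MCM8, MCM10, CDC7, GINS4, WDHD1, TIPIN and POLE had a gain of 1. ORC5, ORC6, CDT1, GMNN, MCM3, DBF4, GINS2, PRIM2, POLE2 and PCNA, like TICRR, then had 1 summit fewer in deletion. In the same setting rescue had more summits than WT at 5 genes and fewer at 10, against 14.6% and 15.2% of all protein-coding genes.

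**Figure D2:**
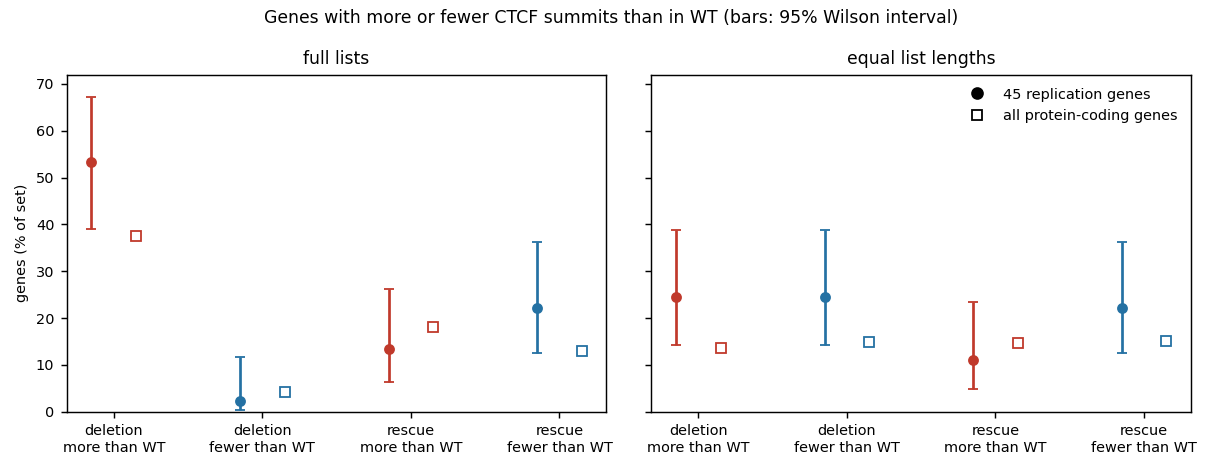
Percentage of genes with more (red) or fewer (blue) CTCF summits than in WT, for the 45 replication genes (filled circles) and all protein-coding genes (open squares), with 95% Wilson intervals; full lists on the left, lists cut to the same length on the right. In the full lists 53.3% of the replication genes have more summits in deletion and 2.22% fewer, and at equal length 24.4% have more and 24.4% fewer.

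Several summits fell inside the 300 bases that RefSeq gives as promoter, from 250 bases before the transcription start to 50 after it, and these sequences are shown because the summits touch the start of the gene. Promoter windows were given for 40 of the 45 genes, 53 windows in all, and 10 summits lay in them. Summits in the promoter windows of all protein-coding genes were not counted, so the 10 are not read as many or few. Each line below has up to 30 bases of the gene's own strand from the hg38 RefSeq table (GRCh38.p14), 5′ to 3′, with the summit base in capitals.
MCM3, WT summit, chr6:52284865-52284894, minus strand: cagcggaaaacccgaAgaagaagaagcttt
TICRR, WT summit, chr15:89575317-89575346, plus strand: ctccaccaatcagacTgaagttttctccac
LIG1, WT summit, chr19:48170565-48170594, minus strand: gcgcTtccaccgattcctcctctttccctg
LIG1, deletion summit, chr19:48170506-48170535, minus strand: ccgctcatccagggcGagggaaagcgcggg
PRIM1, deletion summit, chr12:56752480-56752509, minus strand: aacgcgtgggcagatCgcaaactgctgcgt
CDC7, deletion summit, chr1:91500927-91500956, plus strand: agaagtcgtactcccTtaaaccgtgagttt
CDC45, deletion summit, chr22:19479486-19479515, plus strand: atcgaggactcgggcggaactaagcTacaa
PCNA, deletion summit, chr20:5126843-5126872, minus strand: aGccttccctagccccgacccgagagctcc
ORC6, rescue summit, chr16:46689475-46689504, plus strand: ggggagccgacaagtCcacgttcaccgcat
The tenth is a WT summit 46 bases before a start listed inside PCNA. The deletion summits at PRIM1, CDC7, CDC45 and PCNA lie in regions that the authors' deposited table lists as up. By composition an up region holds no WT or rescue summit, so here and below their absence inside one is no separate result.

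The promoter windows were searched on both strands for 2 strings drawn from the CTCF consensus. The stricter one reads CCA, 2 free bases, AG, 2 free bases and GGC, and it was in 0 of the 53 windows (0 to 6.76%) and in 2.54% of 22006 windows of protein-coding genes. The looser one reads CC, 1 free base, C, 2 free bases, G, 2 free bases and GGC. A stretch can match both strings. The looser one was in 9 windows of 8 genes, 17.0% (9.20 to 29.2), and in 16.6% of all. Among the genes that hold it, MCM3, ORC2, LIG1 and TICRR had a summit within 250 bases of the match, and their matches are shown in capitals, on the gene's own strand. How often a summit lies that near a match over all promoters was not counted. Whether CTCF binds at these matches was not tested. The MCM3 match is to the reverse complement of the string, and ORC2 held 2 matches, of which the one nearer its summits is shown.
MCM3, chr6:52284890-52284919: acgtttcccGCCACCGCGGGGcgcgcagcg
ORC2, chr2:200963638-200963667: gcttcccatCCCCCAGCTGGCctccggtgc
LIG1, chr19:48170392-48170421: cagtgtcctCCGCGCGACGGCggcggtgcg
TICRR, chr15:89575554-89575583: ggaccggggCCCCGGGGCGGCggcacggcc
The middle of the MCM3 match lay 25 bases from the WT, 136 from the deletion and 140 from the rescue summit. At ORC2 the distances were 147, 342 and 130 bases. At LIG1 they were 183 in WT and 113 in deletion, and at TICRR 236 bases in WT. CDT1, GINS2, MCM7 and POLA1 also held the looser string, with no summit that near.

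The 6 ORC genes, which encode the complex that marks origins, had 6 WT, 16 deletion and 8 rescue summits. ORC2, the edited gene (chromosome 2, 200908977 to 200963660, minus strand), accounted for 2, 7 and 5 of these. Its start held a summit in each list, 155 bases into the gene in WT (value 10.4), 350 in deletion (18.8) and 138 in rescue (12.3). A site 3 kb past the far end was also in each list, with a WT value of 4.31, a deletion value of 7.69 and a rescue value of 6.01. The deletion list had 2 further summits outside the gene, 5250 bases before the start (7.61) and 7421 past the far end in NIF3L1 (7.69), both in up regions and with no WT or rescue summit within 4 kb.

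Inside ORC2, the WT list had 1 CTCF summit, the deletion list 4 and the rescue list 4. The deletion summits 5676 and 7282 bases into the gene (24.2 and 16.5) lay 231 and 13 bases from a deletion IgG summit. The rescue summits 5802 and 6660 bases into the gene (18.4 and 33.3) lay 281 and 584 bases from a rescue IgG summit. These 4 summits are marked as near IgG, since signal without the CTCF antibody was listed there too, at values of 60.7 and 16.3 in deletion and 11.1 and 9.57 in rescue. The WT IgG list had no summit in the window. Without them, ORC2 held 1, 2 and 2 CTCF summits inside the gene, and 2, 5 and 3 in the whole window. The remaining summit that WT lacked stood 18736 bases into the gene in deletion (5.41) and 18731 in rescue (4.30), over 11 kb from IgG.

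**Figure D3:**
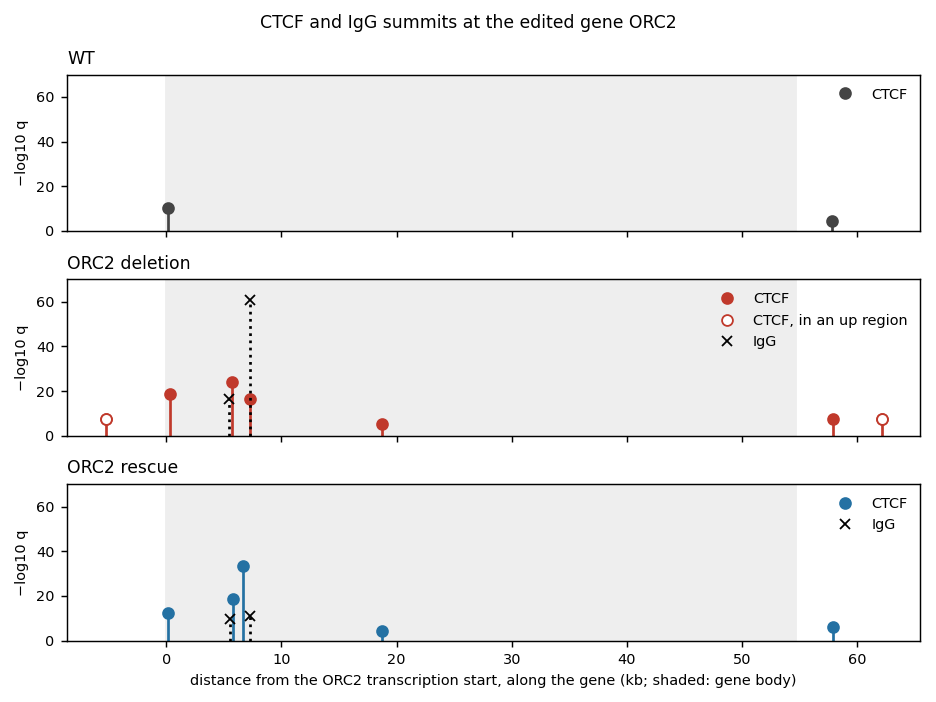
CTCF summits (circles) and IgG summits (crosses) at ORC2 by distance from its transcription start, with the −log10 q of each summit on the vertical axis and the gene body shaded; 1 panel per genotype. The IgG summits in deletion and rescue stand between 5445 and 7295 bases into the gene, where the WT panel has none of either kind.

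Among the other subunits, ORC4 had the most summits. It held a summit 82999 bases past a listed start inside the gene in WT (7.12), 82927 in deletion (10.5) and 82972 in rescue (8.35). Near its start stood a summit in WT (3.72) and deletion (8.92) but not in rescue. The deletion list added 2 summits in up regions in the middle of the gene (7.89 and 3.51). ORC5 had 1 intragenic summit in WT (3.23) and deletion (6.13), 32 bases apart, and a further weak one in deletion in an up region (2.86). ORC6 had a summit 251 bases before its start in WT (5.63), 403 before it in deletion (2.62) and 169 before it in rescue (3.01). A second deletion summit lay inside the neighbouring VPS35 (5.37). ORC1, the subunit that turns over with the cell cycle, had a summit before one of its listed starts, where PRPF38A overlaps the gene, in deletion (5.29) and rescue (1.81), the latter in the lowest 2% of its list. ORC3 had none.

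The helicase loaders and their inhibitor had 4 WT, 7 deletion and 4 rescue summits. CDC6, the loading ATPase, held the same pair of sites in each list, 3.3 to 3.4 kb before its start (8.83 in WT, 7.55 in deletion, 6.57 in rescue) and 15.2 kb into the gene (6.10, 7.47 and 11.4). The intragenic summits of the 3 lists lay within 14 bases of each other. Deletion added 1 up summit 2952 bases into CDC6 (4.59). CDT1, the other loader, had its shared site inside the neighbouring GALNS (3.81 in WT, 5.99 in deletion, 2.72 in rescue). Deletion added 2 weak up summits on either side of CDT1 (3.91 and 3.56), which lay below the value kept at equal list length. GMNN, encoding geminin, had 1 site about 7.9 kb before its start in each list (8.86, 5.55 and 5.21).

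In the helicase core, MCM2, MCM4, MCM6 and MCM7 had no summit in any list within 10 kb. Past that limit, a site 14720 to 14784 bases from MCM4 was in each list (6.62 in WT, 11.3 in deletion, 3.43 in rescue), and a deletion summit lay 10588 bases from MCM7 (5.86). Inside the windows the MCM2-7 genes together had 3 WT, 4 deletion and 3 rescue summits. None of them had an up summit. MCM3 held 3 sites in WT and deletion. The one at its far end had a value of 7.41 in WT and 20.6 in deletion and no rescue summit. The one just before its start, shown above, had values of 5.95, 4.98 and 2.92 in WT, deletion and rescue, and a site 2.0 to 2.4 kb before the start had 3.19, 8.03 and 4.04. MCM5 had an intragenic summit in deletion (11.7) and, 13 bases away, in rescue (6.18), with none in WT.

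MCM8 and MCM9, which act together in homologous recombination, and MCMBP, an MCM-binding protein, had 2, 4 and 3 summits. MCM9 had 1 site in each list (10.7 in WT, 6.76 in deletion, 7.72 in rescue), at a place where ASF1A, a histone chaperone gene, overlaps it. At MCMBP the WT and deletion lists gave the same base, chromosome 10, 119859787 (8.97 and 18.0), and the rescue summit lay 4 bases away (9.33). Deletion added an up summit in MCMBP (4.23). MCM8 had no WT summit, an up summit 4.7 kb past its end in deletion (10.7) and a different one in rescue (3.25), 2092 bases apart.

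The 12 genes of helicase activation and firing had 10 WT, 16 deletion and 9 rescue summits. The highest-valued summits of the whole set in WT and deletion stood just before the start of MCM10, which helps to activate the helicase. They lay 402 bases before it in WT (29.9), 295 in deletion (34.0) and 373 in rescue (16.2), in the top 1.67%, 2.79% and 10.2% of their lists. RECQL4, a helicase of the same step, had a pair of sites outside the gene in each list, with values of 26.9 and 18.6 in WT, 25.1 and 13.6 in deletion and 16.7 and 12.2 in rescue. TOPBP1 had a pair before its start in each list, inside TF, the transferrin gene, with values of 2.56 and 4.07 in WT, 11.1 and 9.45 in deletion and 11.4 and 6.39 in rescue.

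Up summits stood at CDC7, GINS4, CDC45, MTBP and MCM10. CDC7, the S phase kinase, had 2, of which one lay 91 bases into the gene (4.48) and one in its body (6.49). GINS4 had 2 in its body (6.83 and 2.93), and neither gene had a WT or rescue summit. CDC45, the helicase cofactor, had 1 near its start (3.02). MTBP, the partner of Treslin, had an up summit in its body (8.17) besides a site just outside the gene in each list (1.32 in WT, 4.26 in deletion, 3.06 in rescue). MCM10 had one 8.8 kb past its end (7.27).

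TICRR was the 1 gene with fewer summits in deletion than in WT. Its WT summit 137 bases before the start (6.04), shown above, ranked in the top 51.3% of the WT list, and the nearest deletion and rescue summits were 18367 and 18331 bases away. It is not in the down list. DBF4, the activating subunit of CDC7, had 1 intragenic site in each list (2.37, 3.55 and 5.37), and GINS1 had 1 site about 8.4 kb before its start (4.68, 9.43 and 5.59). GINS2 had 1 site in the neighbouring GSE1 in WT (5.04) and deletion (4.34). GINS3 had none.

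The fork protection genes had 4 WT, 7 deletion and 5 rescue summits. CLSPN, encoding claspin, a mediator of the replication checkpoint, had 3 summits in each list, but not at the same places. It shared 1 site past its far end (5.60 in WT, 6.89 in deletion, 4.79 in rescue) and 1 inside the gene (6.09, 17.6 and 8.79). The third lay near the start in WT (2.19) and about 5.0 kb before it in deletion (12.1) and rescue (9.42). Equal counts at CLSPN therefore hid a site found in WT alone and a site absent from WT. TIMELESS had 1 site in each list at 250 to 481 bases from its start (5.60, 9.72 and 4.98), whereas its partner TIPIN had 1 up summit 183 bases into the gene in deletion (6.42). WDHD1, which ties the helicase to DNA polymerase alpha, had an intragenic summit in deletion (10.0) and rescue (3.97) and an up summit past its end in deletion (4.01).

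The polymerase and primase genes had 11 WT, 17 deletion and 9 rescue summits. POLA2, the B subunit of polymerase alpha, held 3 sites in each list. The values were 3.24, 10.2 and 12.1 in WT, 5.30, 20.8 and 24.6 in deletion, and 5.48, 11.5 and 12.4 in rescue, the same order of sites in each list. Deletion added an up summit 4520 bases into POLA2 (7.33). POLA1, the catalytic subunit, had 1 intragenic site in WT (1.32, at the bottom of that list) and deletion (11.5), and a weak up summit in deletion (2.05).

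PRIM1 and PRIM2 encode the primase subunits. PRIM1 had no WT or rescue summit and 2 up summits in deletion, 171 bases before its start (9.07) and 5.3 kb before it (7.11). PRIM2, the longest of the 45 genes at 425 kb, had 4 WT, 4 deletion and 3 rescue summits. Its highest-valued site, at -844 to -809 bases from a listed start, was in each list (22.4 in WT, 19.2 in deletion, 11.3 in rescue). POLE, the leading-strand polymerase, had 1 site past its end in each list (7.98, 11.8 and 6.21) and an up summit in its body (8.86). Its partner POLE2 had a site in the neighbouring DNAAF2 in WT (4.55) and deletion (3.18), and an intragenic site in deletion (5.45) and rescue (3.32). POLD1 had 1 intragenic site in each list (7.31, 7.60 and 9.91).

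The clamp, clamp loader and Okazaki fragment genes had 6 WT, 8 deletion and 3 rescue summits. PCNA, the sliding clamp, had a site past its end in each list (5.28 in WT, 10.7 in deletion, 3.19 in rescue), and one inside the gene in WT (4.57) and deletion (4.90) but not in rescue. A weak up summit 249 bases before the PCNA start (2.33) was in deletion. LIG1, the ligase that seals Okazaki fragments, shared 1 site in the neighbouring PLA2G4C (9.62, 14.6 and 13.0) and 1 inside the gene (7.17, 22.7 and 13.4) across the lists. Its start site was in WT (2.15) and deletion (6.15) but not in rescue, and deletion added an up summit in the gene (11.1), the highest-valued one at any of the 45 genes. FEN1, the flap nuclease, had 1 site at its far end in WT (4.03) and deletion (7.14). RFC1 had none.

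Summit by summit, WT sites at these genes were mostly found again in deletion, the longest of the lists. Within 500 bp, 43 of the 46 WT summits had a deletion summit, 93.5% (82.5 to 97.8), and 33 had a rescue summit, 71.7% (57.5 to 82.7). The 3 without a deletion summit, 6.52% against 10.5% of the whole WT list, were at TICRR, CLSPN and PRIM2, and 13 lacked a rescue summit, 28.3% against 23.8%. Of the 79 deletion summits, 36 had no WT summit, 45.6% against 45.2% of the whole list, and 38 had no rescue summit, 48.1% against 40.1%. Of the 44 rescue summits, 33 had a WT summit, 75.0% (60.6 to 85.4), and 11 had none, where 30.2% of the whole list had none. A deletion summit was lacking for 3 of the 44, 6.82% against 10.4%. The value of the whole list lies inside the interval of each of these shares. With at most 100 bp allowed, 56.5% of WT summits had a deletion summit and 45.7% a rescue summit, against 60.6% and 51.1% of the whole WT list. The median distance between matched WT and deletion summits was 84.0 bp, against 61.0 bp over the whole WT list. With the lists cut to equal length, 65.2% of WT summits had a deletion summit within 500 bp and 71.7% a rescue summit. The higher share in deletion than in rescue was thus not kept at equal length.

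Joining summits within 500 bp gave 85 sites at the 45 genes. Of these, 33 were in all 3 lists, 38.8% (29.2 to 49.5), and 28 in deletion alone, 32.9% (23.9 to 43.5). At all protein-coding genes the shares were 40.7% and 27.2%. WT and deletion without rescue held 10 sites, 11.8% against 8.60% at all protein-coding genes. Deletion and rescue without WT held 8, 9.41% against 13.1%. WT alone held 3 and rescue alone 3, 3.53% each, against 4.27% and 4.99%. No site was in WT and rescue without deletion, against 1.23% at all protein-coding genes.

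**Figure D4:**
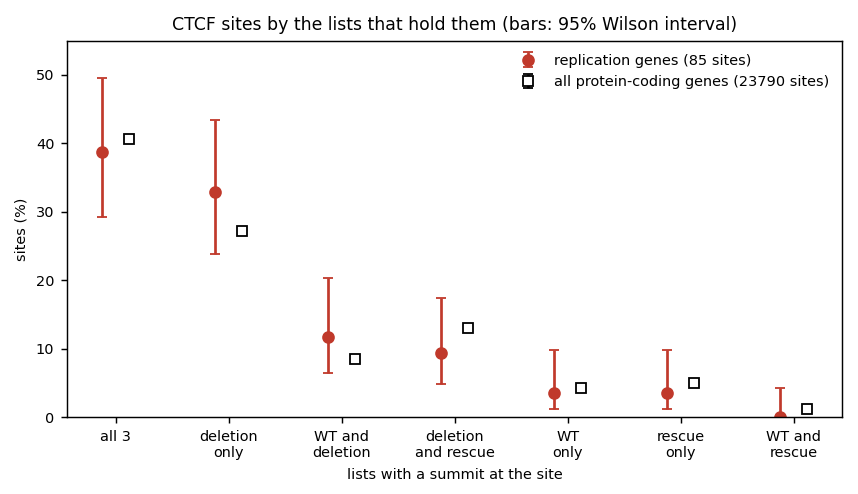
Percentage of CTCF sites found in each combination of lists, at the 45 replication genes (85 sites, filled circles) and at all protein-coding genes (23790 sites, open squares), with 95% Wilson intervals. The interval of the replication genes holds the value of all protein-coding genes in each class.

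The authors' deposited up table took 26 of the 79 deletion summits, 32.9% (23.6 to 43.9), against 30.9% of the whole deletion list. They belonged to 20 of the 45 genes, 44.4% (30.9 to 58.8), where 30.5% of all protein-coding genes had one. The part of gene length in this share of genes was not tested. Up regions hold no WT or rescue summit as the table is composed, so the absence of these sites in rescue is no separate result. The up summits at the 45 genes had a median value of 6.46 and reached 11.1, and the other 53 deletion summits had a median of 8.92 and reached 34.0. Over the whole list the medians were 4.34 and 10.8. Of the 26, 16 lay inside the gene body and 5 within 1 kb of a listed start. None of the 46 WT summits was in the down table, where 1.92% of the WT list was.

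**Figure D5:**
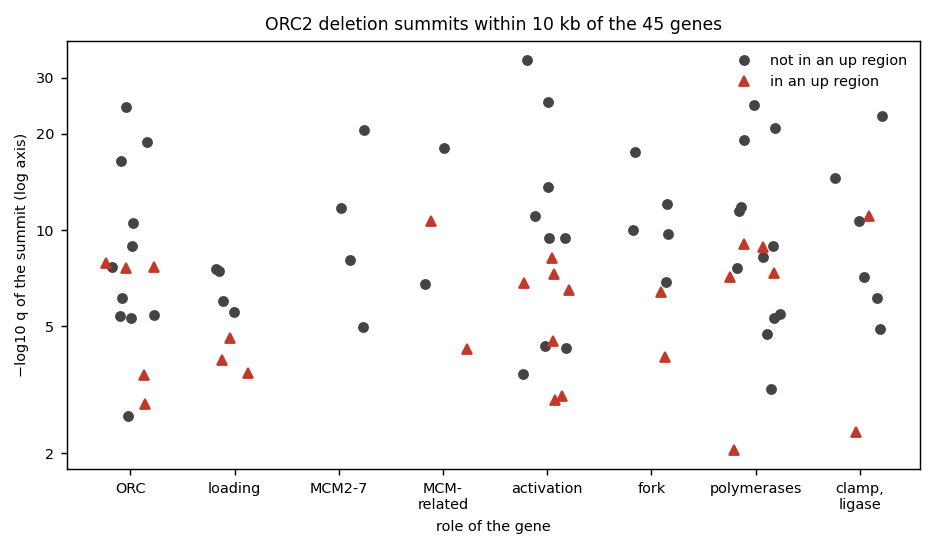
The −log10 q (log axis) of each of the 79 ORC2 deletion summits at the 45 genes, by role, with summits in up regions as triangles and the others as circles; horizontal spread within a role has no meaning. The up summits reach 11.1, and the other summits reach 34.0 at MCM10.

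Summits near a start were listed for 12 of the 40 genes with a promoter entry in WT, 15 in deletion and 8 in rescue, taking 1 kb on either side of any listed start. The intervals of these shares run from 18.1% to 45.4%, from 24.2% to 53% and from 10.5% to 34.8%. Of 15813 protein-coding genes with an entry, 12.2% had such a WT summit, 18.8% a deletion summit and 10.8% a rescue summit. By genes, the WT and deletion intervals lie above these values, and that of rescue holds its value by a small margin. The 50 other replication genes were not counted in this way. The part of the higher summit density in these shares of genes was not tested. By summits, 27.9% of the WT summits (16.7 to 42.7) of genes with an entry stood near a start, against 14.6% over all protein-coding genes. For deletion the share was 22.2% (14.2 to 33.1), an interval that begins at the value of all such genes, 14.2%. The 8 of 40 rescue summits gave an interval of 10.5 to 34.8, which holds the value of all such genes. The GC content of the promoter windows had a median of 63.0% at the replication genes and 62.3% at all protein-coding genes. Past the window, between 10 and 15 kb from the gene, 8 of the 45 genes had a summit, and 2 of them, MCM4 and MCM7, had none inside it. The outermost summits inside it were at POLA2, 9597 to 9712 bases from the gene (12.1 in WT, 24.6 in deletion, 12.4 in rescue). The nearest outside were the MCM7 summit given above and a POLA2 site 11302 to 11444 bases away (8.61, 15.4 and 8.41). A LIG1 site 12025 to 12100 bases from the gene, with values of 17.1, 40.0 and 51.8, was thus left out, although it outranks every LIG1 site inside the window in each list.

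A list of 50 other replication genes, among them the remaining polymerase, clamp loader, replication protein A and histone chaperone genes, had 43 WT, 68 deletion and 50 rescue summits, which is 1.58 times WT in deletion and 1.16 times in rescue. More summits in deletion than in WT were listed for 23 genes, 46.0%, and fewer for 2. At equal list length 7 had more and 10 had fewer. KAT7, an acetylase of histone H4 that acts at origins, had 1 WT, 3 deletion and 1 rescue summit. RFC5, a clamp loader subunit, had 0, 2 and 1, RPA1, a subunit of the single-strand binding protein, had 2, 4 and 2, and RRM2, of ribonucleotide reductase, had 1, 3 and 1. ATAD5, which unloads PCNA, had 0, 1 and 1, and CCNE2, encoding a cyclin E, had 1, 2 and 1.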

How the data were processed

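CTCF and IgG CUT&RUN was done in 11 libraries of HCT116 p53-/- cells in 6 groups. Per the submitters' processing notes, build hg38 and the tools Bowtie2 2.2.9, MACS2, SAMtools 1.12 and FastQC 0.11.5 were used. How peaks were set, duplicates treated and IgG used is not given in the sources used here. Every deposited summit list gives 1 base and a −log10 q per peak. The authors' deposited up and down tables give region starts and ends. The 45 genes and the gene lists were chosen with earlier results of these data known.

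Positions were made 1-based. Genes came from RefSeq (GRCh38.p14, without exons), starts and promoter sequence from its promoter table. Genes described with values are ORC genes, genes with an up or down summit, genes whose count differs by 2 or more from WT, and the highest-valued summit of each role; the others were then added for completeness. The 6 other replication genes named are those with the largest count differences, ties by symbol. Summits within 500 bp counted as shared, and those within 1 kb of any IgG summit as near IgG. Enrichment was not tested. Alternatives changed window, value minimum, list length, matching distance, IgG and ORC2. Matching and windows were tested on simulated data. The work used pandas 2.3.3, SciPy 1.17.1, NumPy 2.4.6 and matplotlib 3.10.9 under Python 3.11.15.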

Additional observations from a re-analysis of the deposited data

Results flagged for a closer look

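Signal outside the CTCF measurement was found at 1 of the 45 genes. The share of all protein-coding genes with an IgG summit was not counted. The IgG lists had 2 summits inside ORC2 in deletion and 2 in rescue, and 0 in WT. In all, these lists held 34 summits in deletion, 33 in rescue and 17 in WT. The rescue IgG list comes from 1 library. The part of this signal in the CTCF summits within 1 kb of it was not tested.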

How the results depend on the processing

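Of 175 values under alternative settings, 125 kept to the main interval, or for counts to 1.5 times the reported number, and 50 moved; causes were not tested beyond what each setting removes or adds. No paired analysis was possible because the CTCF lists carry no replicate numbers, and for that reason no replicate could be left out. Genes with more, equal or fewer summits were counted over all protein-coding genes only for the main setting and equal list lengths. At the other settings these counts have no background beside them and are not read as a result about the replication genes. Within gene bodies alone there were 20 WT, 43 deletion and 22 rescue summits, with fewer than WT at 2 genes in deletion and 6 in rescue. With 2 kb, rescue had 29 summits and 3 genes had fewer in deletion. With 50 kb there were 96, 149 and 98 summits, 10 genes had equal counts in deletion and WT, 2 had fewer in deletion, and 13 had more in rescue. With −log10 q of at least 5, 28 WT summits remained, 82.1% of them found in deletion, 39.0% of deletion summits were found in WT, and 2 genes had fewer summits in deletion and 6 in rescue. With at least 10 there were 8, 24 and 13 summits, so deletion over WT was 3 and rescue over WT 1.62. There 13 genes had more and 31 equal counts in deletion, and 1 had fewer in rescue. Of the WT summits 87.5% were found in rescue, of the deletion summits 29.2% in WT, and 8.33% were up. At equal list lengths deletion had 50 summits, 1.09 times WT, with more at 11 genes and fewer at 11. Of the WT summits 65.2% were then found in deletion and 71.7% in rescue. Matching within 100 bp found 56.5% of WT summits in deletion and 45.7% in rescue, and 32.9% of deletion summits in WT and 39.2% in rescue; within 50 bp these were 30.4%, 28.3%, 17.7% and 21.5%. Without summits near IgG, ORC2 held 2 inside the gene in deletion and 2 in rescue, and 5 and 3 in its window. Leaving out ORC2 moved 0 of 11 values.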
